A study of Homo sapiens with 15 samples.

Results

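The clusters described here are crosslinked stretches of RNA that lay just past the 3' end of long genes, on the strand of the gene. A cluster is a short interval in which PAR-CLIP reads piled up. PAR-CLIP labels RNA in living cells with a photoreactive nucleoside, crosslinks it to protein with UV light and sequences the RNA that stays on the purified protein. Of 14432 gene Regions in the deposited table, 7925 spanned 20 kb or more, and 5543 of those held at least 5 clusters of the RNAPII 4SU library. Each of these 5543 gene ends received a strand, the one with more summed RNAPII 4SU coverage inside the Region, which gave 2886 plus-strand and 2657 minus-strand genes. Member clusters had their midpoint 0 to 5000 bases past that end, on the gene strand, and touched no other Region. They numbered 32230 of 2107438 clusters over all 4 PAR-CLIP libraries. At least 1 member lay past 3389 ends, and 2154 ends had none.

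HEK293T T-REx, a line from human embryonic kidney into which inducible transgenes can be placed, was the source of all 4 libraries. Both PHC1 libraries were made from cells that carry a PHC1 transgene and were grown with hygromycin, after overnight labelling with 100 uM 4-thiouridine (4SU), and the protein was drawn out with streptavidin beads. The RNAPII libraries were made from cells without a transgene, with an antibody to the C-terminal domain of RNA polymerase II, 1 after 100 uM 4SU and 1 after 100 uM 6-thioguanosine (6SG). The cells thus differed between PHC1 and RNAPII in transgene, hygromycin and purification, and the RNAPII libraries differed from each other in the nucleoside. The labels do not say whether the PHC1 libraries came from separate cultures, so the spread between them may be technical. The labels give no stress treatment for any of these libraries.

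RNA polymerase II does not stop where a gene's mature transcript ends. The cleavage and polyadenylation machinery cuts the nascent RNA at the poly(A) site, the polymerase goes on transcribing, and the exonuclease XRN2 degrades the downstream RNA until the polymerase is released. RNA past a gene end is therefore nuclear and usually short lived, and it lengthens when cleavage fails, as under osmotic or heat stress. PHC1 is a subunit of the Polycomb repressive complex PRC1, which compacts chromatin at silent genes.

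The libraries differed in depth. Clusters numbered 696186 and 698056 in PHC1 replicates 1 and 2, 667937 in RNAPII 4SU and 45259 in RNAPII 6SG. The 10 deepest clusters held 22.6% of the summed coverage of PHC1 replicate 1 and between 3.72% and 10.5% of the other libraries. In nuclear RNA of the same line, 5 of the 6 measured markers of this line reached 1 CPM (reads per 1000000 reads in genes) in both libraries. The list summed to 1129 and 1094 CPM, of which 1 gene gave 925 and 890, and its median was 29.5 and 28.8 CPM. The sum was 1.89 and 2.16 CPM for 4 fibroblast markers. It was at most 0.524 for each of the blood, keratinocyte and hepatocyte lists, of which no marker reached 1 CPM.

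Whether these clusters lie past the true gene end could be checked for only some ends. The strand assigned from RNAPII 4SU was also the RefSeq strand in 4284 of 4507 genes that could be compared (95.1%, 95% Wilson interval 94.4 to 95.6%). It was the strand with more PHC1 coverage in 93.8% and 93.9% of genes. However, the RefSeq gene was more than 500 bases longer than the deposited Region in 1722 genes (31.1%), so that some members may lie inside a longer transcript, and a RefSeq neighbour reached into the window of 2341 ends (42.2%). RefSeq here is a later build, of which only names, strands, lengths and neighbours were used. The 1699 ends (30.7%) with the RefSeq strand, no neighbour and no longer span are called clean ends below, and the main values are given for them too. This subset was defined after the data had been seen.

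Members made up 1.67% and 1.64% of all clusters in the PHC1 libraries, 1.30% in RNAPII 4SU and 1.10% in RNAPII 6SG. They numbered 11619 and 11446 in PHC1, 8666 in RNAPII 4SU and 499 in RNAPII 6SG. PHC1 replicate 1 had a member past 2465 ends (44.5%, 95% Wilson interval 43.2 to 45.8%), replicate 2 past 2390 (43.1%, 41.8 to 44.4%) and RNAPII 4SU past 2476 (44.7%, 43.4 to 46.0%). RNAPII 6SG, with far fewer clusters, had one past 385 ends (6.95%). These intervals cover counting error only. The share of ends reached was thus alike in PHC1 and RNAPII 4SU, while the PHC1 libraries had more clusters per end reached, a median of 3 against 2. Members were short, with a median length of 34, 40, 33 and 43 bases in PHC1 replicate 1, PHC1 replicate 2, RNAPII 4SU and RNAPII 6SG. Only 23, 23, 28 and 1 of them, in that order, also covered the end itself.

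The rule's threshold made no sharp edge in these values. Among the 132 ends with exactly 5 RNAPII 4SU clusters inside, 17, 19 and 13 had a past-end cluster in PHC1 replicate 1, PHC1 replicate 2 and RNAPII 4SU. Among the 135 long Regions with exactly 4, just outside the rule, the numbers were 19, 21 and 21.

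Past the ends, most signal lay on the gene strand. In the same windows the other strand held 2746, 2659, 2425 and 167 clusters, so that 80.9% and 81.1% of PHC1 clusters, 78.1% of RNAPII 4SU and 74.9% of RNAPII 6SG clusters were on the gene strand. At clean ends these shares were 88.3%, 87.8%, 90.6% and 87.4%, and at ends with a RefSeq neighbour in the window 72.2%, 72.1%, 66.6% and 64.5%.

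Cluster density fell at the gene end in every library and then declined slowly. Over the 3847 ends with 10 kb free of other Regions, PHC1 replicate 1 had 852 clusters per Mb in the last 5 kb inside the gene, 463 in the first 5 kb past the end and 355 in the next 5 kb. PHC1 replicate 2 had 820, 462 and 356. RNAPII 4SU started higher inside, at 1153, and dropped to 347 and 256 past the end. RNAPII 6SG had 68.4, 19.4 and 16.3. Past-end density was thus 54.3% and 56.4% of the inside density in PHC1 but 30.1% and 28.4% in RNAPII 4SU and 6SG. At the 1468 clean ends with the same free space the percentages were 47.6%, 49.0%, 22.9% and 25.2%. On the other strand, density went up past the end, from 48.9 to 86.9 clusters per Mb in PHC1 replicate 1 and from 42.6 to 73.8 in RNAPII 4SU.

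**Figure D1:**
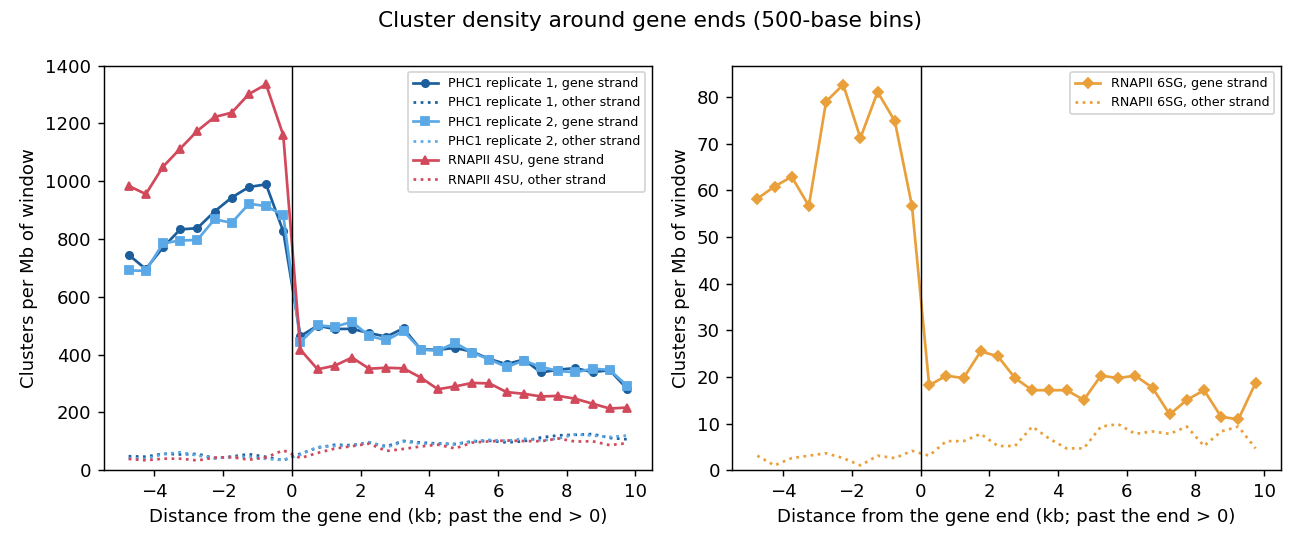
Clusters per Mb (y axis) by distance from the gene end in kb (x axis, 500-base bins, negative inside the gene) over 3847 ends, PHC1 and RNAPII 4SU at left and RNAPII 6SG at right on its own scale; solid lines show the gene strand and dotted lines the other strand. RNAPII 4SU is above PHC1 inside the gene (1153 against 852 and 820 in the last 5 kb) and below it past the end (347 against 463 and 462).

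Summed coverage showed the same contrast. Summed coverage is the cluster's mean coverage times its length. It is given in units, which are summed coverage per 1000000 of the library's total after TMM scaling, a trimmed-mean scaling over all gene regions and windows. Over all 5543 ends the past-end windows added up to 15377 and 15499 units in PHC1, 6510 in RNAPII 4SU and 8309 in RNAPII 6SG. A single end, SPG7, accounted for much of the 6SG sum, which was 5520 without it. Set against the last 5 kb inside the same genes, past-end coverage was 49.8% and 56.4% in PHC1, 14.6% in RNAPII 4SU and 24.1% in RNAPII 6SG. At clean ends it was 44.7%, 51.9%, 10.9% and 15.1%. One window further inside, the last 5 kb held 108% and 103% of the coverage of the 5 kb before it in PHC1, 120% in RNAPII 4SU and 110% in 6SG. The genes had been chosen for RNAPII 4SU clusters inside them, so the 4SU percentages are a description.

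The fall at the end was tested in PHC1, whose libraries played no part in choosing genes or strands. limma was run on log2(units + 1) with the library as a block, over end pairs and control pairs together. An end pair sets the free bases within 5 kb past the end against the last 5 kb, and a control pair sets the last 5 kb against the 5 kb before it. Of 3025 end pairs with at least 1 unit in 2 of their 4 values, 1997 were lower past the end (66%) and 467 were higher (15.4%), at a Benjamini-Hochberg adjusted p of 0.05. Of 3295 control pairs, 941 were lower (28.6%) and 1202 higher (36.5%). The median log2 difference was -1.39 in end pairs and 0.16 in control pairs. From 1 PHC1 library at a time, with no test, the end-pair median was -0.42 and -0.52. There the filter needed 1 unit in both windows, which leaves out every pair with signal on only 1 side. Those medians are therefore not comparable with -1.39. The past-end window was whole at 4448 of the 5543 ends and cut short by another Region at the rest, which lowers their sums. At the 2388 tested ends with a whole window, 1467 were lower and 422 higher, with a median of -1.19. The filter let 1282 end pairs pass through the inside window alone and 149 through the past-end window alone. Without it, 2260 of 4396 end pairs were lower (51.4%) and 522 higher (11.9%); for 4540 control pairs these shares were 22.6% and 29.4%. With a filter on the mean of the 4 values instead, 64.7% of end pairs were lower and 15.7% higher, against 28.1% and 35.7% of control pairs. Over end and control pairs together 46.5% were lower and 26.4% higher. At clean ends 620 of 959 were lower and 141 higher. Higher signal past the end was commoner where RefSeq reaches further than the Region, with 198 of 907 such ends higher (21.8%). Among 1871 ends that were clean, or had a RefSeq neighbour but no longer span, 228 were higher (12.2%). At clean ends alone the share was 14.7%. These differences were not tested.

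**Figure D2:**
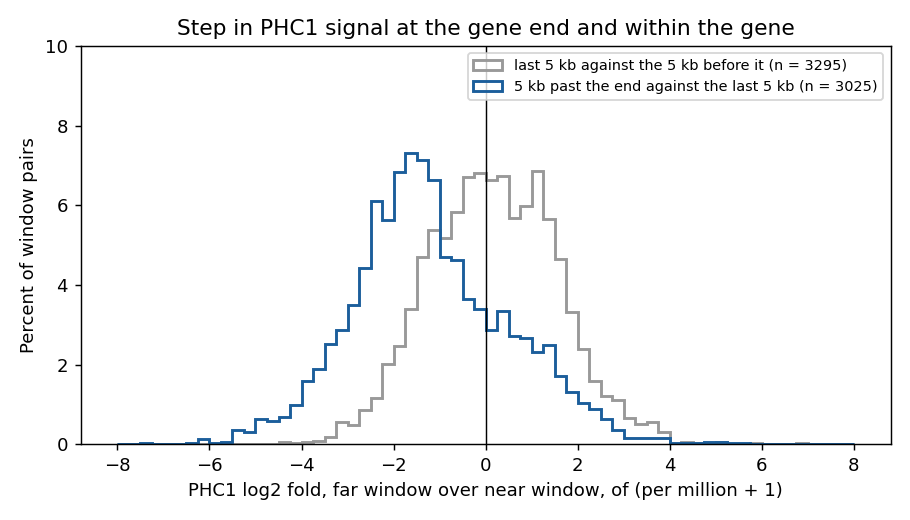
Percent of window pairs (y axis) by PHC1 log2 fold of (units + 1), far window over near window (x axis), as fitted over both PHC1 libraries. End pairs in blue have their median at -1.39 and control pairs in grey at 0.16.

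At most ends the log2 difference across the end was higher in PHC1 than in RNAPII 4SU. Without any filter, the log2 difference between the past-end and inside windows was higher in both PHC1 libraries than in RNAPII 4SU at 3467 of 5543 ends (62.5%), and lower in both at 982 (17.7%). For control pairs of the same genes the shares were 35.2% and 45.1%. At clean ends they were 66.2% and 17.1%, beside 38.7% and 44.4% for control pairs. The genes had been chosen by RNAPII 4SU clusters inside them, and the 4SU series has 1 library, so this is a description with no test. That choice bears on the 4SU level inside the gene, and its part in these shares was not tested. PHC1 had signal in either window at 4188 and 4072 of the 5543 ends, and RNAPII 4SU at 4780. An end without PHC1 signal shows no PHC1 step, which counts as higher wherever 4SU falls. PHC1 was also below RNAPII 4SU inside at 58.2% of ends, which leaves it less room to fall above the pseudocount. The part of this in the shares was not tested either.

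For the past-end level itself, both PHC1 libraries exceeded RNAPII 4SU at 1627 of 5543 ends (29.4%), and both were below it at 1066 (19.2%). At clean ends the shares were 34.7% and 17%. In the last 5 kb inside the same genes the order was turned round, with 20.7% above and 58.2% below, and over all 14432 gene Regions 32.7% were above and 39.8% below. A Region value, here and in the tests below, is summed over its whole length and both strands. Past-end values cover at most 5 kb of the gene strand, so the shares of Regions and windows are not alike in kind. Against both RNAPII libraries at once, PHC1 was higher past 27.5% of ends, which is also the share over all gene Regions (27.5%), and lower past 1.77%, against 15% of Regions. At clean ends the last 5 kb inside stood above RNAPII 4SU at 23.5% of genes and below it at 59%. Many windows were at 0 in the shallow 6SG library, and a PHC1 value cannot fall below it there.

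The planned test against the RNAPII pair made no call. By limma, 0 of 648 past-end windows with 5 units in at least 2 libraries passed an adjusted p of 0.05, and 0% of all 7846 features did; at an unadjusted p under 0.05, 356 windows were higher and 17 lower in PHC1. On simulated data with a 4-fold change in 100 features this design recovered 0. Of the 648 windows, 369 passed the filter through PHC1 alone, so the balance of signs among them is no measure of an excess. Against RNAPII 4SU alone, with the single library assumed to vary as PHC1 does, 508 of 617 past-end windows were higher in PHC1 (82.3%) and 30 lower (4.86%), beside 31% and 32.1% of gene Regions and 35.3% and 29.8% of all 7363 features. To pass there a window needed 5 units in at least 1 PHC1 library. With a filter on the mean of both groups, 377 of 522 past-end windows were higher in PHC1 (72.2%) and 61 lower (11.7%). For gene Regions under that filter, 27.1% were higher and 37.5% lower. With no filter the same test called 107 of 3366 past-end windows higher (3.18%) and 71 lower (2.11%), near the 2.8% and 3.14% of gene Regions. Leaving RNAPII 4SU out instead sets PHC1 against the single 6SG library, which had a cluster past only 6.95% of ends. A window there again needed 5 units in at least 1 PHC1 library, so the signs in that fit are no measure of an excess. Leaving out either PHC1 library gave no call.

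Most past-end clusters of one PHC1 library were met by a cluster of the other. Of the members of replicate 1, 66.6% overlapped a replicate 2 cluster by at least 1 base, and of those of replicate 2, 72.0% overlapped replicate 1. In the last 5 kb inside the genes these shares were 67.0% and 75.6%, and elsewhere outside all Regions 65.4% and 69.4%, so past-end clusters recurred about as often as others. Overlap with RNAPII 4SU clusters was lower past the end, at 23.2% and 22.9% of PHC1 members, than in the last 5 kb, at 44.9% and 44.3%. It was 28.7% and 27.1% in the rest of the gene and 26.7% and 25.9% elsewhere. RNAPII 4SU clusters themselves were denser in the last 5 kb than past the end, and the part of that density in the overlap was not tested.

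By end rather than by position, PHC1 and RNAPII 4SU shared most of the ends they reached. Both PHC1 libraries had a cluster past 2082 ends (37.6%). RNAPII 4SU also had one at 1573 of them (75.6% of the 2082 ends, and 63.5% of the 2476 ends with a 4SU cluster). At 509 ends both PHC1 libraries had a cluster and RNAPII 4SU had none, and at 593 ends the reverse held, with 4SU alone and neither PHC1 library. All 4 libraries had a cluster past 280 ends (5.05%). Across the 3366 ends with signal in PHC1 or 4SU, Spearman's rho of the past-end level was 0.86 between PHC1 replicates and 0.37 and 0.33 between PHC1 and RNAPII 4SU. Inside the same genes it was 0.95, 0.69 and 0.65. These correlations are across gene ends within a few libraries and the points share each gene's transcription and the depth of the libraries.

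How far the clusters reached was read from 10 bins of 500 bases, counting bins that held a cluster in both PHC1 libraries. Of the 4448 ends with a whole free window, 2764 (62.1%) had no such bin, 928 (20.9%) had 1 or 2, 493 (11.1%) had 3 to 5, 153 (3.44%) had 6 or 7, and 110 (2.47%) had 8 or more. The signal was concentrated: the 100 highest ends held 37.7% and 37.3% of the past-end coverage in PHC1, 42.9% in RNAPII 4SU and 76.6% in RNAPII 6SG.

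The 10 ends with the highest PHC1 level were chosen by that level, so the values describe them. WDR4, a subunit of a tRNA methyltransferase, led (chromosome 21, 44263190 to 44299699, minus strand). Its window past the end held 133 and 225 units in PHC1, 32.7 in RNAPII 4SU and 81.2 in RNAPII 6SG. Both PHC1 values were above both RNAPII values, and all 10 bins were filled in both PHC1 libraries. RefSeq reaches 13395 bases beyond the length of the deposited WDR4 Region, so this window may be within the longer gene.

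ZNF544, a zinc finger protein gene on chromosome 19 (58740070 to 58775008, plus strand), had 149 and 195 units in PHC1 against 24.4 and 62.9 in RNAPII 4SU and 6SG. The neighbouring gene ZNF8 reaches into its window in RefSeq. ANKRD36, an ankyrin repeat gene (chromosome 2, 97779233 to 97930257, plus strand), had 166 and 153 units in PHC1, 30.7 in RNAPII 4SU and 32.0 in 6SG. Inside the gene the order was the other way, with 5.14 and 3.03 in PHC1 and 57.5 in RNAPII 4SU. ANKRD36 has near-identical copies, ANKRD36B among them, and how reads with several matches were placed is not given in the sources used here.

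PSMD12, a subunit of the proteasome lid (chromosome 17, 65336619 to 65362721, minus strand), had 167 and 121 units past the end in PHC1 and 8.20 in RNAPII 4SU. Its inside values were 9.27 and 6.69 in PHC1, 31.1 in RNAPII 4SU and 21.0 in 6SG, so the 2 proteins were ordered oppositely on the 2 sides of the end. NUP155, a scaffold protein of the nuclear pore (chromosome 5, 37291941 to 37371197, minus strand), behaved alike, with 126 and 95.8 in PHC1 and 10.5 in RNAPII 4SU past the end against 6.63, 6.46 and 9.87 inside. RefSeq is longer than the Region by 2559 bases for PSMD12 and by 3713 for NUP155.

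XRCC2, a DNA repair gene (chromosome 7, 152343587 to 152373250, minus strand), was the exception among these ends. RNAPII 4SU was highest there, with 154 units past the end against 119 and 124 in PHC1, and all 4 libraries had clusters. HSP90AA1, the inducible cytosolic HSP90 chaperone (chromosome 14, 102547075 to 102606086, minus strand), had 102 and 103 units in PHC1, 10.1 in RNAPII 4SU and 0 in 6SG. Inside it was far higher, at 532 and 235 in PHC1 and 656 in RNAPII 4SU. ANKLE2, a regulator of nuclear envelope reassembly (chromosome 12, 133302254 to 133338451, minus strand), had 184 units in replicate 1 and 57.2 in replicate 2. A single cluster made up 91.8% of the replicate 1 value, so this end's level rests largely on 1 site in 1 library. The remaining ends of this set were the pseudogene SUZ12P1 (103 and 116 units in PHC1, 21.8 in RNAPII 4SU) and ZNF724 (115 and 93.0, against 41.6). RefSeq is longer than the Region by 1702 bases for XRCC2, 13603 for ZNF544, 22780 for SUZ12P1 and 2230 for ZNF724. RefSeq neighbours reach into the windows of HSP90AA1 (RN7SL472P), ANKLE2 (PGAM5 and RNA5SP379) and SUZ12P1 (CRLF3), so these are not clean ends.

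**Figure D3:**
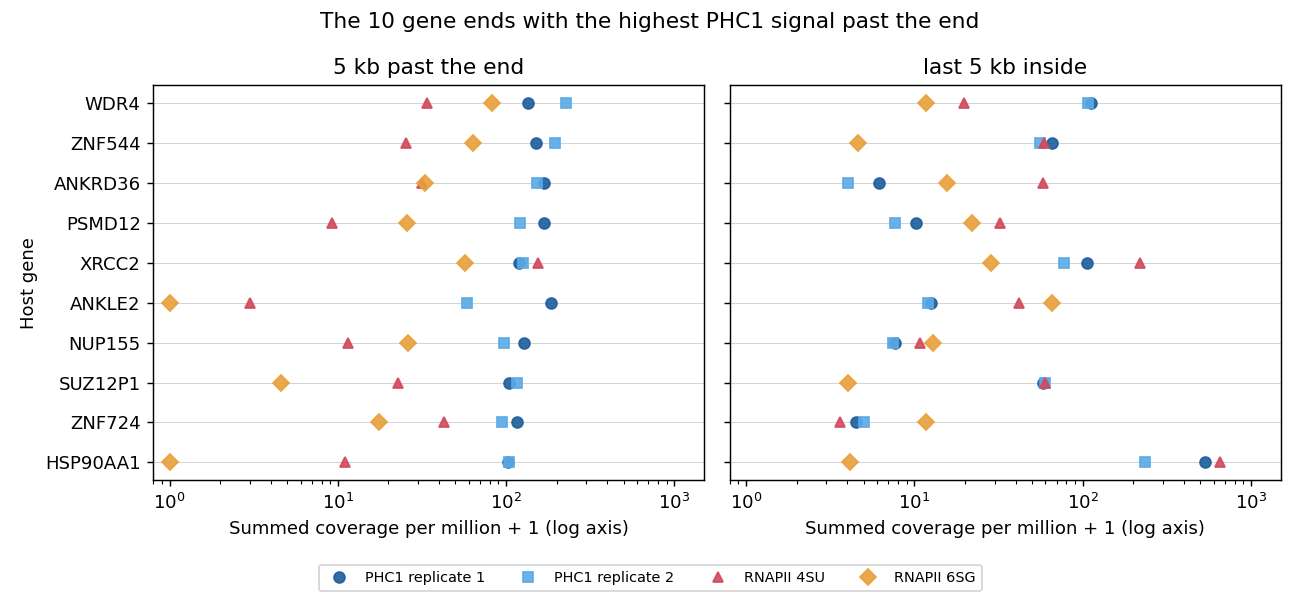
Summed coverage in units per 1000000, plus 1 (x axis, log scale) at the 10 gene ends with the highest mean PHC1 level past the end (y axis), past the end at left and in the last 5 kb inside at right; each symbol is 1 library. Past the end PHC1 is above both RNAPII libraries at 9 of the 10, XRCC2 being the exception, while inside the gene the order varies.

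Set against RNAPII 4SU alone, YTHDF2 had the largest excess in PHC1 among the tested windows and is a clean end. It encodes a reader of m6A-modified RNA (chromosome 1, 29063133 to 29096287, plus strand). Past its end PHC1 had 76.7 and 78.8 units, RNAPII 4SU 0.379 and 6SG 3.26, a log2 difference of 5.83 from 4SU. ZNF568, also a clean end (chromosome 19, 37407231 to 37488834, plus strand), had 106 and 93.5 units in PHC1 and 3.06 in RNAPII 4SU, but 237 in RNAPII 6SG from 1 cluster. The log2 difference from 4SU was 4.63, and against RNAPII 6SG alone it was -1.24. With 1 library in the 4SU arm these differences describe the libraries, and both ends reached 5 units in PHC1 but not in RNAPII 4SU. Without the low-value filter the limma call against 4SU stayed at YTHDF2 and was lost at ZNF568. WDR12, a ribosome biogenesis factor, had 28.4 and 30.8 units in PHC1, ANKRD42 had 27.5 and 20.6, and both were listed without a cluster in either RNAPII library. RefSeq is longer than the Region by 5786 bases for WDR12 and 8819 for ANKRD42, and the neighbours ICA1L and CCDC90B reach into their windows. RABGEF1P1, a pseudogene, had 34.1 and 44.1 in PHC1 and 0.823 in RNAPII 4SU, and LOC100420547 reaches into its window in RefSeq.

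At the other extreme, RNAPII 4SU exceeded PHC1. TFDP1, the dimer partner of E2F factors and a clean end (chromosome 13, 114239003 to 114295788, plus strand), had 10.4 and 5.64 units in PHC1, 61.3 in RNAPII 4SU and 8.28 in 6SG. The log2 difference was -2.84 from the single 4SU library and -0.09 from the single 6SG library, and the limma call against 4SU was lost without the low-value filter. CPLANE1, a ciliary protein, had 13.8 and 6.28 in PHC1 and 60.9 and 79.1 in the RNAPII libraries, which did not overlap PHC1. RefSeq is 30507 bases longer than the CPLANE1 Region, so this window may lie inside the gene. EP400P1, a pseudogene, had 10.1 and 7.94 against 57.7 and 51.1, and LOC107987169 reaches into its window in RefSeq. CCDC144CP (11.9 and 5.76 in PHC1, 63.3 in RNAPII 4SU) and CCDC138 (9.91 and 5.88, 46.7) had no 6SG cluster, and against the RNAPII pair their log2 folds were positive. RefSeq is 9107 bases longer than the CCDC138 Region, and RANBP2 reaches into its window.

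Some ends had more PHC1 signal past the end than inside. CCDC90B had 46.9 and 46.5 units past its end and no PHC1 cluster in its last 5 kb (log2 step 5.58 ± 0.29, limma adjusted p = 3.2e-11). It faces ANKRD42 on chromosome 11: in RefSeq each of these genes reaches into the window of the other. RefSeq is also 2374 bases longer than the CCDC90B Region, so part of its window may lie inside the longer gene. ANKRD36B, a clean end, had 59.5 and 64.5 past the end and 0.971 and 0 inside (step 5.49 ± 0.30). TPT1-AS1 had 36.4 and 27.4 past the end in PHC1, beside 88.4 in RNAPII 4SU and 75.3 in 6SG, and no cluster of any library in its last 5 kb. TPT1, which encodes an abundant growth-related protein, and the snoRNA gene SNORA31 lie in that window in RefSeq. By its name TPT1-AS1 is antisense to TPT1, and its strand here was assigned from RNAPII 4SU. The window may therefore hold TPT1 RNA and not lie past the end of TPT1-AS1, which was not tested. RNF141, a RING finger gene, had 36.0 and 45.3, of which 95.7% and 52.7% came from 1 cluster each, with the mitochondrial pseudogene MTRNR2L8 as a RefSeq neighbour.

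Several of the sharpest stops had high PHC1 signal inside and almost none past the end. POLR2A, the largest subunit of RNA polymerase II and a clean end, had 90.6 and 56.9 units inside and no cluster of any library past the end (log2 step -6.19 ± 0.28, limma adjusted p = 8.4e-12). NUCKS1, a nuclear DNA-binding protein and a clean end, had 71.3 and 62.8 inside and none past the end, where RNAPII 4SU still had 5 clusters. ZNF793 had 98.9 and 86.9 inside and 0.480 and 0 past the end. NUDC, a dynein-associated protein, had 84.0 and 67.6 against 0.221 and 0 in 2684 free bases. RefSeq is 21561 bases longer than the NUDC Region, so the Region may not stop at the gene end. For ZNF793 it is 507 bases longer. The neighbours KDF1 and LOC124904708 reach into the windows of NUDC and ZNF793. A cluster table lists only called clusters, so a value of 0 means no cluster was listed, and a fitted step against 0 depends on the pseudocount and is no bound.

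The genes for 3'-end processing and termination factors were looked up as hosts, from a list of 44. Of these, 24 gave an end, and 8 had a past-end cluster in both PHC1 libraries (33.3%, beside 37.6% of all ends). In PHC1, 15 of the 19 tested end pairs of this list were lower past the end and 2 were higher, with a median step of -2.28, beside 66% lower, 15.4% higher and a median of -1.39 over all 3025. Windows were cut short at 7 of the 19; of the 12 whole ones, 10 were lower and 2 higher, with a median of -1.79. The higher ones were INTS1, the scaffold of the Integrator complex (11.0 and 6.39 units past the end, 4.63 and 3.99 inside, step 0.83 ± 0.30, limma adjusted p = 0.018), and CPSF2, a cleavage complex subunit (11.5 and 8.06, against 4.77 and 4.88, step 0.87 ± 0.29, adjusted p = 0.011). RefSeq is 7931 bases longer than the CPSF2 Region, so its window may lie inside the gene. With 2500-base windows both turned negative, at -0.92 and -1.34. RBBP6, which activates cleavage, had 60.3 and 27.5 units inside and no cluster of any library past its end. CPSF7, a subunit of cleavage factor Im, had 33.4 and 26.6 inside against 0 and 0.992 in a window of 3784 free bases. XRN2 itself had 0.500 and 0 past its end. SSU72, a phosphatase of the polymerase tail, had 40.3 and 3.38 in the 1312 free bases past the end, a spread too wide for a call (step -1.49 ± 1.76, limma adjusted p = 0.57).

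Of 3 genes known from work on stress-induced downstream transcripts, SERBP1 and OSGIN2 gave an end. SERBP1, an mRNA-binding protein and a clean end (chromosome 1, 67873493 to 67896123, minus strand), carried PHC1 clusters in all 10 bins. It had 72.0 and 72.7 units past the end in PHC1, 35.1 in RNAPII 4SU and none in 6SG. PHC1 had about as much inside, 64.4 and 76.0 (step 0.05 ± 0.19, limma adjusted p = 0.83). OSGIN2 had no PHC1 cluster past its end and 3 of RNAPII 4SU.

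Among 30 Polycomb genes, 17 gave an end and 10 of these had a past-end cluster in both PHC1 libraries (58.8%, beside 37.6% of all ends). Of 14 tested end pairs, 10 were lower past the end and 2 higher, with a median step of -2.20, beside 66% and 15.4% of all end pairs. Of the 9 with a whole window, 6 were lower and 2 higher, with a median of -2.18. AEBP2, a PRC2 cofactor, was higher (36.2 and 38.9 units past the end, 10.0 and 10.9 inside, step 1.75 ± 0.21, limma adjusted p = 8e-07), though RefSeq extends it by 35590 bases. RNF2, the catalytic subunit of PRC1, was higher at a low level (1.91 and 3.80, against 1.14 and 1.04). EZH2, the PRC2 methyltransferase, had 46.6 and 59.1 inside and 2.39 and 2.72 past the end (step -3.91 ± 0.24). SUZ12, its partner, had 10.2 and 10.5 inside and 1.04 and 2.05 past the end, and RBBP7 had 28.4 and 32.8 inside and none past the end, where only 132 bases were free of other Regions.

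Ends of shorter genes and of genes with more nuclear RNA per kb carried clusters more often. The 4448 ends with a whole free window were divided into 5 equal groups by the nuclear RNA level (CPM per kb) of the host gene, which the rule did not use. Both PHC1 libraries had a past-end cluster at 12.7% of ends in the lowest group (95% Wilson interval 10.7 to 15.0%) and at 28.6%, 39.6%, 53.0% and 69.8% (66.7 to 72.7%) in the others. RNAPII 4SU rose in step, from 17.0% to 73.7%, and RNAPII 6SG from 1.91% to 16.3%. By Region length, the share in both PHC1 libraries fell from 56.5% in the shortest of 5 groups to 17.3% in the longest. Length and RNA moved together, the median RNA per kb being 2.32 CPM in the shortest group and 0.468 in the longest. This RNA level is divided by Region length, so these measures are not independent. Undivided, the median was 116 CPM at hosts with past-end clusters in both PHC1 libraries and 64.2 CPM at hosts with none. Past-end coverage as a percentage of inside coverage stayed higher in PHC1 than in RNAPII in each RNA group. It was 52.3% to 74.9% in replicate 1 and 60.5% to 85.3% in replicate 2, against 15.3% to 36.2% in RNAPII 4SU and 20.3% to 46.3% in RNAPII 6SG.

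**Figure D4:**
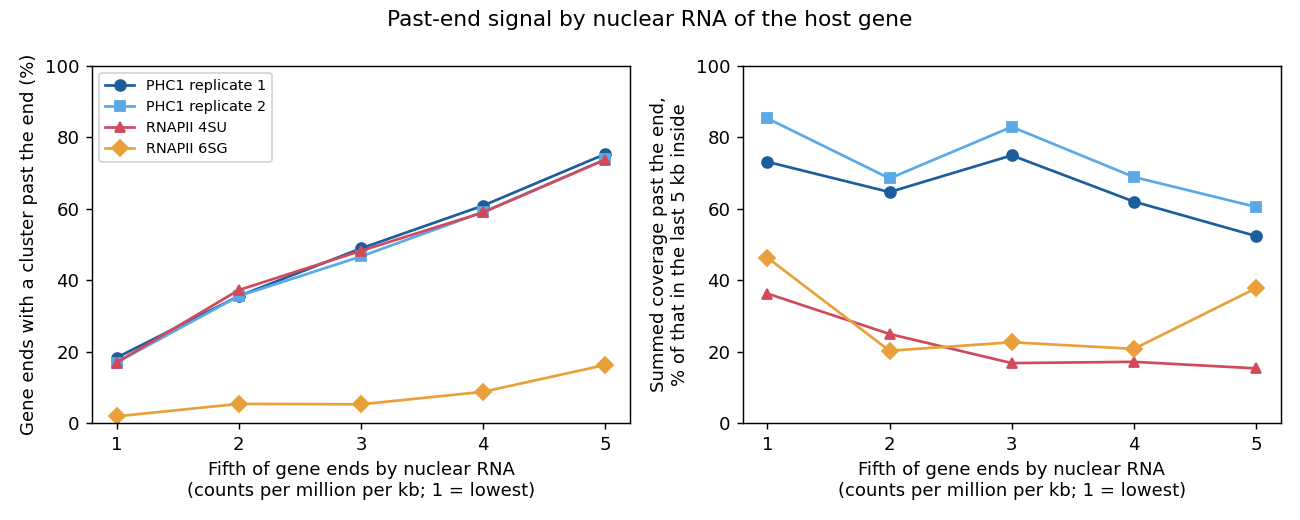
Ends with a past-end cluster (left, percent) and summed coverage past the end as a percentage of that in the last 5 kb inside (right), by 5 equal groups of nuclear RNA per kb of the host gene (x axis, 1 lowest), with 1 line per library. The share of ends with a cluster goes from 17.0% to 73.7% in RNAPII 4SU and follows the same course in PHC1, while the right panel keeps PHC1 (52.3% to 85.3%) above RNAPII (15.3% to 46.3%).

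The chromatin scores at the start of these genes differed by median. A score is the authors' value at the start site, from 1 library for RNAPII, H3K4me3, H3K27me3 and EZH2. It can be negative and the input column is 0 throughout, as after subtraction of the input. Medians were 13.3 for RNAPII and 53.0 for H3K4me3, a mark of active promoters, at the 1811 hosts with PHC1 past-end clusters in both libraries, and 8.30 and 40.8 at the 2070 hosts with none. H3K27me3, the mark laid down by PRC2, had medians of -2.20 and -1.58, and EZH2 -0.67 and -0.21. The PHC1 score, the authors' joint value of 2 libraries, had a median of -0.20 and -0.03. Quartiles overlapped for every score: the PHC1 interquartile range was -1.25 to 0.96 with clusters and -1.07 to 0.93 without. These are descriptions without a test.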

How the data were processed

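All 4 PAR-CLIP libraries, 2 nuclear RNA libraries and the ChIP table were used. The submitters' processing notes name the build hg19 throughout. For PAR-CLIP they name Bowtie (0.12.7) and SAMtools (0.1.19), for RNA TopHat2 (2.0.11), for ChIP Bowtie2 (2.2.3). The cluster caller is not given in the sources used here. Each deposited cluster has a signal, its mean coverage per base, which gave whole sums over the cluster's bases in 100% of cases (tolerance 1e-04). RNA values are deposited as raw read counts, and ChIP values as a deposited score for each gene. Of the tables' value columns 2 were not used, an input column of 0 and a joint RNA column. Positions are given as deposited.

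Clusters were placed by midpoint. Sums were scaled with TMM (edgeR 4.0.16) over 14432 Regions and 5543 windows, a pseudocount of 1 was added, and limma 3.58.1 (trend, robust) was run in R 4.3.3, with p-values adjusted over all features of a fit. Coverage is no read count, so no count test was run. Both scripts were tested on simulated data: against RNAPII 4SU alone, 99 of 100 features with a log2 change of 2 and 50 of 100 with a change of 1 were recovered, and for window pairs 100 and 60. False calls numbered 14 against RNAPII 4SU alone and 11 for window pairs. The simulated noise was taken from the fit, which for RNAPII 4SU alone rests on the PHC1 libraries. That simulation therefore cannot show how a single 4SU library varies. The members and lists were chosen with earlier results of these data known. Named ends were the 10 highest in PHC1, the 5 highest and lowest folds of each test (against RNAPII 4SU alone, since fewer than 10 windows were called against the pair) and the 3 gene lists. SPG7 was added after its values were seen. Of the ends that this rule names, 1 is not reported here.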

Additional observations from a re-analysis of the deposited data

How the results depend on the processing

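Member numbers follow the size of the windows and the number of ends. For PHC1 replicates 1 and 2, RNAPII 4SU and RNAPII 6SG they were 6387, 6325, 4920 and 285 with 2500-base windows, 19181, 19006, 14106 and 849 with 10000-base windows, 4325, 4309, 3799 and 187 with Regions of at least 50 kb, and 3668, 3672, 2273 and 152 at clean ends. The gene-strand share in the same order was 82.1%, 82.3% and 79.6% (first 3 libraries) with 2500 bases, 78.1%, 78.2%, 74.5% and 70.5% with 10000 bases, and 75.5%, 75.7%, 75.9% and 69.5% with 50 kb. It was 88.3%, 87.8%, 90.6% and 87.4% at clean ends, 81.8%, 81.9% and 78.9% with at least 10 RNAPII 4SU clusters inside, and 84.1%, 84.0% and 80.5% where both PHC1 libraries had the same strand. Recurrence of replicate 2 clusters was 73.1% with Regions from 10 kb, 68.9% from 50 kb (replicate 1, 65.0%) and 69.1% at clean ends.

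Against RNAPII, higher and lower windows numbered 508 and 30 with RNAPII 4SU alone, 377 and 61 with the filter on the mean, 107 and 71 without a filter, and 168 and 5 at clean ends. Leaving out 1 library gave 0 to 508 higher and 0 to 41 lower windows: 504 and 41 without RNAPII 4SU, 508 and 30 without RNAPII 6SG, and none without either PHC1 library. Without RNAPII 4SU, the 622 windows tested each had 5 units in at least 1 PHC1 library. RNAPII 6SG had a cluster past only 6.95% of all ends, so the counts of that fit are no measure of an excess. The median log2 fold, 2.54 in the planned test, was 1.27 with a pseudocount of 5, 0.48 without a filter, 0.35 without a filter against RNAPII 4SU alone, and 1.40 to 3.12 without 1 library. The step's median, -1.39, was -0.55 with a pseudocount of 5, -0.80 without a filter, and -0.52 to -0.42 without 1 PHC1 library. With 1 PHC1 library the filter needed 1 unit in both windows, so other pairs were compared. Clean ends fitted by themselves gave 138 higher and 624 lower pairs. Without the library as a block, which pairs the windows of a library, 425 pairs were higher and 1917 lower, and the calls at WDR4, INTS1, RNF2 and XRCC2 were lost. Apart from that change of filter, the cause of these shifts was not tested.

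Some single ends changed sign. Against RNAPII, CCDC138, CCDC144CP and XRCC2 were positive with the pair and -2.46, -2.78 and -0.34 with RNAPII 4SU alone under each of its filters and without RNAPII 6SG. With a pseudocount of 5 CCDC138 was -0.34 and CCDC144CP -0.45, and without TMM CCDC144CP was -0.065 and XRCC2 -0.067. Leaving out 1 library gave -2.46 to 3.12 at CCDC138, -2.78 to 3.23 at CCDC144CP, -0.34 to 1.11 at XRCC2 and -1.24 to 4.63 at ZNF568, with the lowest value without RNAPII 4SU for ZNF568 and without RNAPII 6SG for the others. Without PHC1 replicate 1 CCDC138 was -0.01 and CCDC144CP -0.25. The step over 2500 bases was -0.24 at ANKLE2, -1.34 at CPSF2, -0.92 at INTS1, 0.18 at RABGEF1P1, -0.37 at SERBP1 and -0.57 at XRCC2, and INTS1 was -0.33 by covered bases. Without PHC1 replicate 1 and without replicate 2 it was 0.17 and -0.27 at RABGEF1P1, -0.063 and 0.16 at SERBP1, -0.23 and 0.52 at YTHDF2, and -3.46 and 0.48 at SSU72. Of the values for single ends, 718 kept direction and side of the threshold, 111 passed it only in the alternative, 20 lost it, 30 changed sign and 1 moved without a test. RNAPII 6SG, with 45259 clusters, limits what can be seen there.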

Other observations

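SPG7, which encodes a mitochondrial protease, had a past-end signal of another order in the RNAPII libraries. Its Region lies on chromosome 16 (89574805 to 89624174, plus strand). The window held 85.1 and 60.2 units (summed coverage per 1000000) in PHC1, 265 in RNAPII 4SU and 2789 in RNAPII 6SG, where 1 cluster (89627799 to 89627862) had a mean coverage of 5982. The deepest RNAPII 4SU member (89627771 to 89627854) overlapped it, and a PHC1 replicate 1 cluster (89627572 to 89628144) spanned both. RefSeq places RPL13, a ribosomal protein gene, and the snoRNA gene SNORD68 in this window. The 10 deepest members held 45.4% of the 6SG past-end coverage, beside 4.81%, 2.50% and 5.80% in PHC1 replicate 1, PHC1 replicate 2 and RNAPII 4SU.

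Zinc finger genes of chromosome 19 recurred among the highest ends. They were grouped after their values had been seen, so the following is a description. Of 90 ends of ZNF-named genes on that chromosome, 59 had a past-end cluster in both PHC1 libraries (65.6%), beside 103 of the 199 other ends on chromosome 19 (51.8%) and 37.6% of all ends. Density past these ZNF ends was 1152 and 1376 clusters per Mb in PHC1, 705 in RNAPII 4SU and 56.7 in 6SG. At the other ends of the chromosome it was 944, 893, 525 and 36.4. The 90 ends carried 7.93% and 8.14% of the past-end coverage in PHC1 and 6.12% in RNAPII 4SU. These genes resemble each other in sequence, and how reads with several matches were placed is not given in the sources used here.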
